A study of Canis lupus familiaris with 6 samples.

Results

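The genes described here, 8 of fuel metabolism in the kidney tubule, are CYP4A11, PCK1, FBP1, CPT1A, PPARA, PPARGC1A, ACADM and EHHADH. They are 8 of 34378 names on the array, measured by 22 of 43603 probes, and every probe that carries one of the 8 names was included. The genes were chosen by a rule that used the values themselves, with the differences between mixed culture and culture alone known, above all those of CYP4A11 and PCK1. Their differences in that comparison are therefore given as a description, and nothing is read from whether one of them passed a threshold.

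All samples derive from MDCK (Madin-Darby canine kidney), an established dog line of epithelial cells. MDCK-pTR GFP-RasV12 cells, called RasV12 cells below, are the same line made to express GFP-tagged oncogenic Ras when tetracycline is given. They were either cultured alone (3 samples) or mixed with normal MDCK cells (3 samples), treated with tetracycline for 24 h in both cases, and sorted by their GFP before RNA was taken. In the study this experiment served as the counterpart, without activated β-catenin, of a comparison made in cells that carry both changes. The label of mixed replicate 2 gives 100 MDCK cells to 1 RasV12 cell, while the labels of mixed replicates 1 and 3, and the methods, give 10 to 1. The extraction text of the labels names a line that also carries a β-catenin mutant, which the titles and the methods do not give for these samples. Nothing in the labels says that the 3 samples of a group came from separate experiments, so the spread between them may be technical.

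Each sample was read in 1 colour on 1 Agilent canine array. Values are given as scaled intensity, which is the scanner's background-corrected signal after every array was set to the same 75th percentile of 639 units, and differences as mixed culture minus culture alone on the log2 scale, with the standard error (SE) of the fit. The scanner marks a spot whose signal clearly exceeds its background as well above background, here 60.8% to 66.4% of the probes of an array. The comparison took the 26534 probes so marked on all 3 arrays of a group, whichever it was, and the number of arrays limits the precision. The arrays of cells cultured alone were on one slide and those of mixed culture on another, so slide and condition cannot be told apart. Scaling to spike-in controls moved the median difference of all probes to -0.16, so every difference below is relative to the bulk of the genes.

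As background, PPARα (PPARA) is a nuclear receptor that is activated by fatty acids and switches on genes for burning them, and PGC-1α (PPARGC1A) is a coactivator of that and other receptors. CPT1A brings long-chain fatty acids into mitochondria, ACADM starts the oxidation of medium-chain ones there, EHHADH acts in peroxisomal oxidation, and CYP4A enzymes add a hydroxyl group at the far end of the chain. PCK1 and FBP1 are regulated enzymes of gluconeogenesis. In the kidney these activities are known mainly from the proximal tubule, whereas MDCK cells are usually likened to more distal segments.

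The sequences of 4 probes of CYP4A11 and PCK1 are shown. The brightest probe of each gene is not among these 4. The first pair is annotated to the transcripts of CYP4A11 and of its close relatives CYP4A37 and CYP4A38, so neither can tell these genes apart, and the second pair reads PCK1. All are 60 bases long, on the plus strand of CanFam3.1, the build of the array's annotation. Capitals mark a stop triplet that ends the open reading frame of the probe, and the other 3 probes each have a frame without a stop.
CYP4A11, probe at base 1513 of the transcript, chr15:13673155-13673214: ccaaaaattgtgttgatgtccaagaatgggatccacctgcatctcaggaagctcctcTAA
CYP4A11, probe at base 1260, chr15:13669072-13670453: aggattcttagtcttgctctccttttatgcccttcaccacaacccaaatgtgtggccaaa
PCK1, probe at base 1837, chr24:42543433-42543492: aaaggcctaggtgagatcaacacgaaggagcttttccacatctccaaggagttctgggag
PCK1, probe at base 719, chr24:42540715-42540903: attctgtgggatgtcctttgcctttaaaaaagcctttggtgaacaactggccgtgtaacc
The probe of CYP4A11 at base 1260 covers 1382 bases of the genome and that of PCK1 at base 719 covers 189, so each spans an intron and reads spliced RNA. The remaining CYP4A11 probe, at base 2365 (chr15:13674006-13674065), is annotated to the CYP4A11 transcript alone among the curated ones.

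The 8 genes did not move as a group. CYP4A11, PPARGC1A and PCK1 were higher in RasV12 cells from mixed culture, by 1.75-fold to 3.23-fold at their 7 compared probes. Both ends of that range come from dim probes, PCK1 at base 1837 and PPARGC1A at base 2693. With normexp background correction their differences were 0.36 and 0.61 on the log2 scale. The PPARGC1A probe entered the comparison only through mixed culture. CPT1A, ACADM and EHHADH differed by -0.32 to 0.18 on the log2 scale at their 6 compared probes. FBP1 and PPARA itself were not well above background on all arrays of either group at any of their 5 probes. In all, 13 probes of 6 genes were compared. In limma's fit over all probes, 11.2% of the compared probes were called at an adjusted p under 0.05, and 5.50% were called higher. Of the 13, 3 were called, all higher, and 2 when only probes well above background on all 6 arrays were taken. The groups did not overlap at 8 of the 13, against 37.2% of all. Nothing is read from these counts, because this comparison chose the genes.

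**Figure D1:**
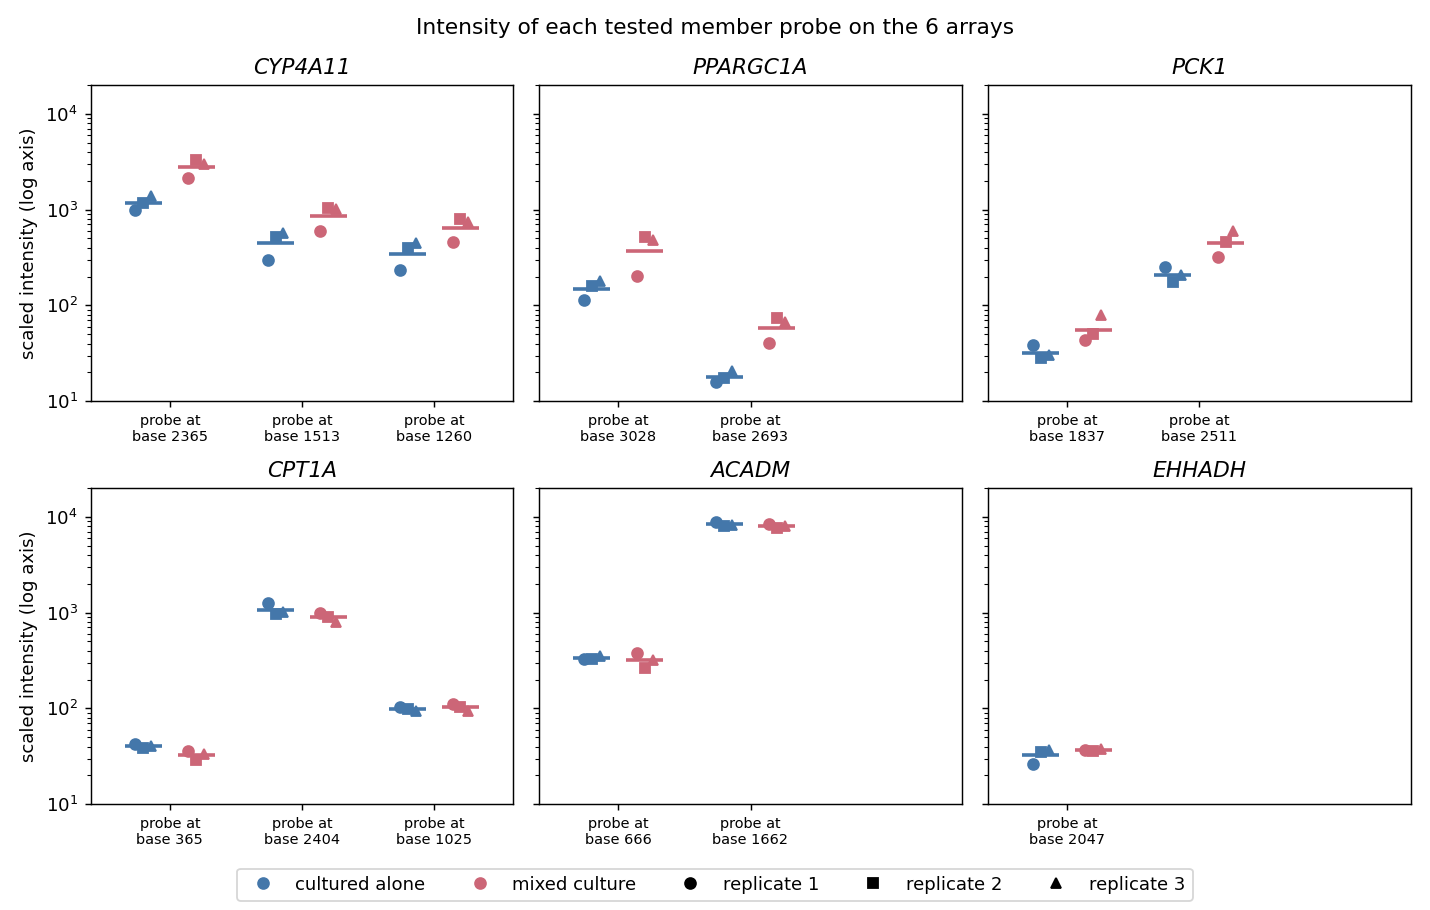
Scaled intensity (vertical, log axis) of each compared probe of 6 genes on the 6 arrays, with horizontal lines at the geometric mean of the 3 arrays of a group. The arrays of mixed culture lie above all arrays of culture alone for CYP4A11, PPARGC1A and PCK1, and close to them for CPT1A, ACADM and EHHADH; the heights of different probes are not comparable.

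CYP4A11 was higher at all 3 of its probes. At the probe of its own transcript (base 2365) the scaled intensity was 986, 1174 and 1381 in replicates 1 to 3 cultured alone and 2133, 3313 and 3023 in replicates 1 to 3 of mixed culture. The groups did not overlap, and replicate 1 was the lowest array of each. The difference was 1.25 (SE 0.20, n = 3 against 3), or 2.37-fold, and 6 alternatives that left out 1 array moved it between 1.12 and 1.44.

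The shared probe at base 1513 read 296, 514 and 576 in culture alone and 598, 1032 and 1023 in mixed culture, a difference of 0.95 (SE 0.31). The shared probe at base 1260 read 232, 393 and 451 in culture alone and 457, 802 and 741 in mixed culture, a difference of 0.91 (SE 0.31). At both, replicate 1 of mixed culture stood only just above replicate 3 of culture alone. The spread between replicates was larger here than at the CYP4A11 probe, with SDs of 0.51 and 0.50 on the log2 scale in culture alone against 0.24.

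The genes that share these probes showed the same direction of difference, and they were not among the 8. CYP4A37 read 711, 1350 and 1418 in culture alone and 1395, 2794 and 2439 in mixed culture at its curated probe. Its difference was 0.93 (SE 0.35) and the groups overlapped, with limma's adjusted p = 0.128. A probe for a predicted CYP4A37 transcript, taken up after its values were seen, read 424, 953 and 961 against 1117, 2382 and 2107, a difference of 1.28 (SE 0.41, limma's adjusted p = 0.0889). CYP4A38 was dim, with 9.70, 20.7 and 14.6 in culture alone, where 2 of 3 arrays were well above background, and 25.5, 36.9 and 38.0 in mixed culture. The difference was 1.20 (SE 0.29). This probe entered the comparison only through mixed culture, so nothing is read from its call, which the list counts below include. Cross-hybridisation between these relatives was not tested, so these are not independent readings.

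Much of the spread of the CYP4A probes followed the replicate number. Replicate 1 was low in both groups, and arrays with the same number held the same place on the 2 slides. Compared within a number, the difference at the CYP4A11 probe was 1.11, 1.50 and 1.13 in replicates 1 to 3. At base 1513 it was 1.01, 1.01 and 0.83, and at base 1260 it was 0.97, 1.03 and 0.72. At the curated probe of CYP4A37 it was 0.97, 1.05 and 0.78. These values are closer together than the replicates of either group. With the replicate number as a block, which called 10.6% of all compared probes, CYP4A37 had limma's adjusted p = 0.0313.

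**Figure D2:**
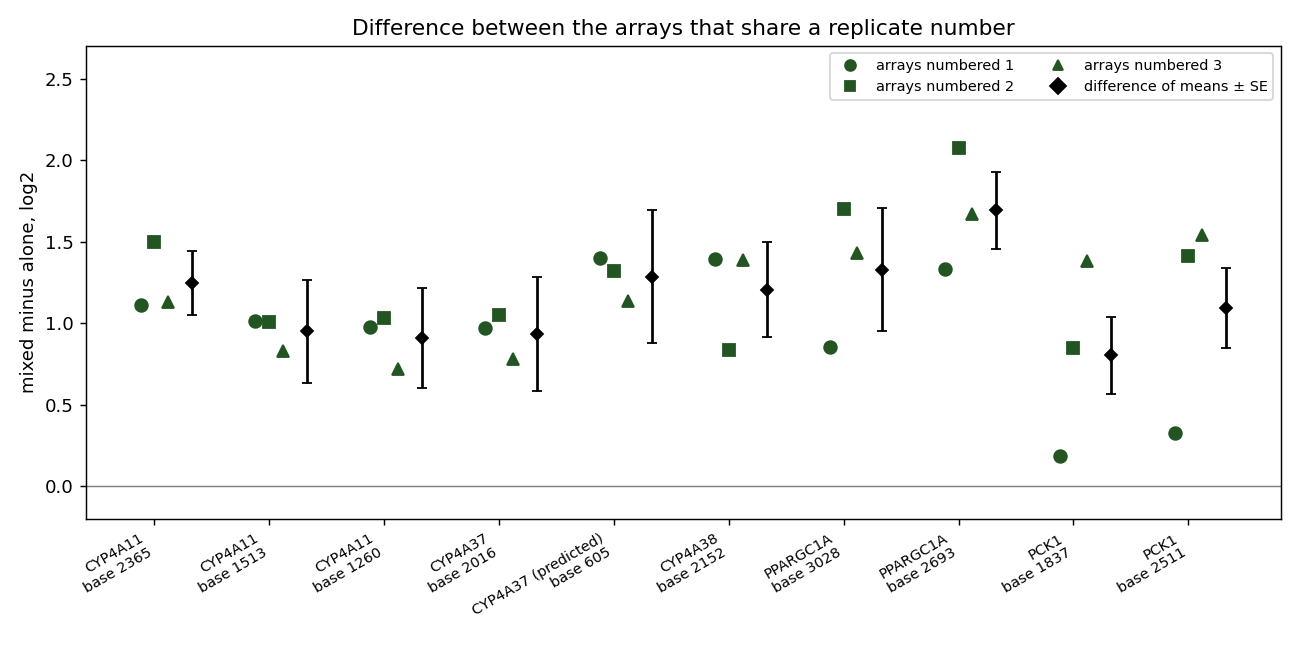
Difference on the log2 scale (vertical) between the mixed and alone arrays with the same replicate number, for each compared probe of the genes that were higher and of the CYP4A relatives, beside the difference of group means with its SE. The 3 values of a CYP4A11 probe span 0.19 to 0.38 between the lowest and the highest, whereas those of PCK1 run from 0.33 to 1.54 at base 2511.

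CYP4A11 is one of several cytochrome P450 genes in a row on chromosome 15. Within 250 kb of its probes, the CYP4A probes were the ones that differed most. CYP4X1, a P450 gene 161 kb before it, differed by 0.00 (SE 0.11), and CYP4B1, 6.73 kb after it, was not well above background on any array. The other named genes of the window that were measured, STIL, EFCAB14, ATPAF1 and MOB3C, differed by -0.07 to 0.16. PDZK1IP1, which encodes a membrane protein of the proximal tubule, was higher by 0.41 (SE 0.07, limma's adjusted p = 0.0245).

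**Figure D3:**
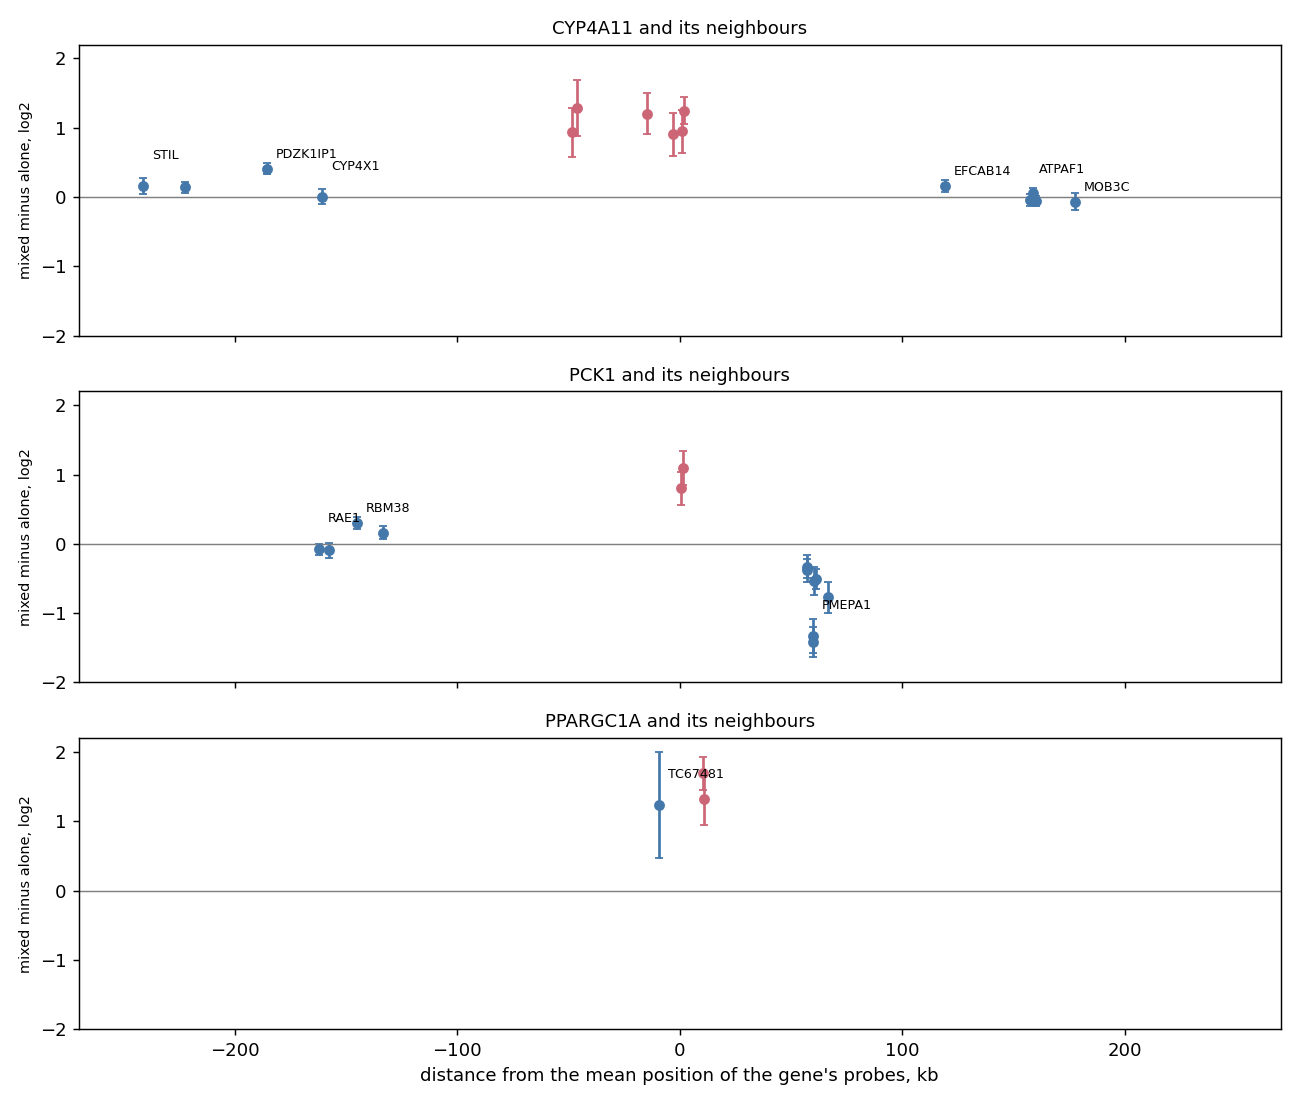
Difference on the log2 scale (vertical, bars are SE) of every compared probe within 250 kb of CYP4A11, PCK1 and PPARGC1A, against its distance in kb from the mean position of the gene's probes. Red points are the gene and, in the upper panel, its CYP4A relatives; near PCK1 the probes of PMEPA1 lie below 0.

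PPARGC1A was higher at the 2 of its 5 probes that were compared. At base 3028 (chr3:86281667-86281726) it read 113, 161 and 180 in culture alone and 205, 522 and 485 in mixed culture. The difference was 1.33 (SE 0.38). The groups did not overlap, but replicate 1 of mixed culture was far nearer to culture alone than replicates 2 and 3, and the differences within a replicate number were 0.85, 1.70 and 1.43.

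At base 2693 (chr3:86281332-86281391) PPARGC1A read 16.0, 17.5 and 20.9 in culture alone, where 2 of 3 arrays were well above background, and 40.4, 73.7 and 66.6 in mixed culture. The difference was 1.69 (SE 0.23), or 3.23-fold, and 0.61 with normexp background correction. This probe entered the comparison only through mixed culture. The probe at base 712 reached the scanner's mark on 1 of 3 arrays in culture alone and 2 of 3 in mixed culture, with at most 14.1 and 19.3 units. The 2 remaining probes were not well above background on any array. No probe with the symbol of another gene lay within 250 kb. A probe of an unnamed transcript lay 9.19 kb from the mean position of the PPARGC1A probes, between those at bases 712 and 1136. It was well above background on 5 of 6 arrays, so it entered the comparison through 1 group only. It differed by 1.23 (SE 0.77, limma's adjusted p = 0.317, and 0.0439 with the replicate block), and was named after its value was seen.

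PCK1, which turns oxaloacetate into phosphoenolpyruvate, was higher with another pattern among the replicates. At base 2511 (chr24:42544107-42544166) it read 254, 175 and 207 in culture alone and 319, 464 and 602 in mixed culture. The groups did not overlap. The difference was 1.09 (SE 0.25), or 2.13-fold. Here replicate 1 was the highest array of culture alone and the lowest of mixed culture, so the difference within a number was 0.33 in replicate 1 against 1.41 and 1.54 in replicates 2 and 3.

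At base 1837 PCK1 read 38.4, 28.2 and 30.6 in culture alone and 43.5, 50.8 and 79.6 in mixed culture, a difference of 0.80 (SE 0.24), and of 0.36 with normexp background correction. At base 719, PCK1 was not well above background on any array of culture alone and on 1 of 3 in mixed culture, so no fold is given. PMEPA1, whose product dampens TGF-β signalling and whose probes lie 59.9 to 61.2 kb from those of PCK1, was lower at all 4 of its probes, by -1.42 to -0.51. Of those, 2 were called by limma, with adjusted p of 0.0195 and 0.0271, and RAE1 and RBM38 on the other side differed by -0.09 to 0.30 without a call.

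CPT1A, the gatekeeper of mitochondrial fatty acid oxidation, gave small differences whose sign depended on the probe. At base 2404 it read 1253, 960 and 1023 in culture alone and 1001, 908 and 801 in mixed culture, a difference of -0.25 (SE 0.13), and the groups overlapped. Without alone replicate 1, the highest array, that difference was -0.14. At base 365 it read 42.6, 38.4 and 40.8 in culture alone and 35.9, 28.7 and 33.2 in mixed culture, a difference of -0.32 (SE 0.10) with no overlap, and of -0.05 with normexp. At base 1025 the difference was 0.05 (SE 0.09), and -0.11 with spike-in scaling.

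ACADM read 8872, 7981 and 8258 in culture alone and 8399, 7668 and 7931 in mixed culture at base 1662, a difference of -0.06 (SE 0.08), and of -0.02 without alone replicate 1. At base 666 it read 324, 330 and 352 against 376, 267 and 322, a difference of -0.07 (SE 0.13), and of 0.05 without mixed replicate 2. The groups of ACADM overlapped at both probes. EHHADH read 26.5, 35.3 and 36.5 in culture alone and 36.6, 35.6 and 37.8 in mixed culture, a difference of 0.18 (SE 0.13). Alone replicate 1 was the one low array, and without it the difference was 0.03. With normexp it was 0.09.

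PPARA, the receptor, was near background. Its probe at base 1929 (chr10:19940469-19940528) read 9.04, 13.7 and 13.3 in culture alone and 16.7, 11.2 and 6.96 in mixed culture, well above background on 1 array. Its probe at base 1413 (chr10:19940985-19941044) read 2.19 to 3.51 and was not well above background on any array. FBP1, the gluconeogenic phosphatase after PCK1 in the pathway, had 3 probes. The one at base 1753 was well above background on 1 array, alone replicate 1, at 25.1 units, and the others on none. No difference is given for either gene, because no group was well above background on all its arrays.

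The other receptors and coactivators were taken from a list written with earlier results of these data known. Leaving out PPARGC1A, 1 of its 16 measured genes was called at its brightest probe, against 10.9% of all genes measured with 1 probe each. The list's median was 0.09, and this and the medians below include those of the 8 genes that a list holds. PPARGC1B, a relative of PPARGC1A, was lower, with 563, 720 and 706 in culture alone and 464, 444 and 443 in mixed culture, a difference of -0.55 (SE 0.11, limma's adjusted p = 0.0313). The groups did not overlap, and the direction is the opposite of that of PPARGC1A. NCOA2, a coactivator of nuclear receptors, was higher by 0.53 at 1 of its 2 probes (limma's adjusted p = 0.0348) and had 0.52 at the other (adjusted p = 0.0832). PPARD and PPARG were well above background on all 6 arrays, with differences of -0.81 and -0.78 for the probes of PPARD (limma's adjusted p = 0.0624 and 0.0556) and of -0.30 and -0.25 for those of PPARG. RXRA, the shared partner of the PPARs, differed by 0.09 at its brightest probe. HNF4A, which drives hepatic and proximal tubule genes, was well above background on 1 of 6 arrays. These receptors without a call were named after their values were seen.

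In mitochondrial fatty acid oxidation, 1 of 20 measured genes other than the 8 was called, beside the same 10.9%. ECI2, an isomerase for unsaturated chains, read 4503, 4466 and 4806 in culture alone and 2919, 2576 and 2844 in mixed culture, a difference of -0.73 (SE 0.08, limma's adjusted p = 0.0131), and its second probe gave -0.77. The list's median was -0.05, against 0.01 over all genes. In peroxisomal oxidation, 2 of 13 were called and both were lower, as were 5.29% of all genes. CROT, which makes carnitine esters for export to mitochondria, had -0.63 (SE 0.07, limma's adjusted p = 0.0131) and -0.37 at a second probe that was not called. SLC25A17, a peroxisomal carrier, had -0.39 (SE 0.10, limma's adjusted p = 0.0488) at the brightest of its 5 probes and -0.41 to -0.27 at the others, none of which was called.

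In omega-oxidation, 1 of 6 measured genes other than CYP4A11 was called, beside 10.9% of all genes. It was CYP4A38, at the probe that entered through mixed culture only. The list's median was 0.31, and it was 0.47 without alone replicate 2 and 0.15 with spike-in scaling. In gluconeogenesis, 1 of 16 measured genes other than PCK1 was called, in the higher direction, beside 10.9% of all genes in either direction. SLC37A4, the glucose-6-phosphate transporter, was higher by 0.37 at 1 probe (limma's adjusted p = 0.0422) and had 0.09 at the other. PCK2, the mitochondrial relative of PCK1, differed by 0.14 to 0.47 at 3 probes without a call, and G6PC and SLC2A2, named after their values were seen, were not well above background on any array. The list's median was -0.02.

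In fatty acid uptake and activation, 3 of 14 measured genes were called and all were lower, as were 5.29% of all genes. FABP3, a fatty acid binding protein, read 25191, 29187 and 31949 in culture alone and 19205, 14707 and 15730 in mixed culture, a difference of -0.80 (SE 0.13, limma's adjusted p = 0.0224). FABP4 was lower by -0.53 and -0.55 at its 2 probes (limma's adjusted p = 0.0238 and 0.0160). SLC27A3, of the fatty acid transport protein family, was lower by -0.38 (limma's adjusted p = 0.0242). The list's median was -0.18. Of the 4 measured genes of ketone body metabolism none was called by limma, against 10.9% of all genes in either direction. Of these 4, 1 had an unadjusted p under 0.05, and the list had a median of 0.01 and a range of -0.08 to 0.28.

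Of the 23 measured PPAR targets other than the 8 genes, 3 were called, FABP3, PDK4 and UCP2. All 3 were lower, as were 5.29% of all genes, and the list's median was -0.02. PDK4, which restrains the use of pyruvate in mitochondria, read 303, 302 and 307 in culture alone and 251, 227 and 254 in mixed culture, a difference of -0.32 (SE 0.07, limma's adjusted p = 0.0433). UCP2, a mitochondrial carrier, had -0.51 (limma's adjusted p = 0.0366). With the replicate block, neither PDK4 (adjusted p = 0.0584), UCP2 (adjusted p = 0.0631), NCOA2 (adjusted p = 0.0614) nor SLC37A4 (adjusted p = 0.0591) was called by limma.

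**Figure D4:**
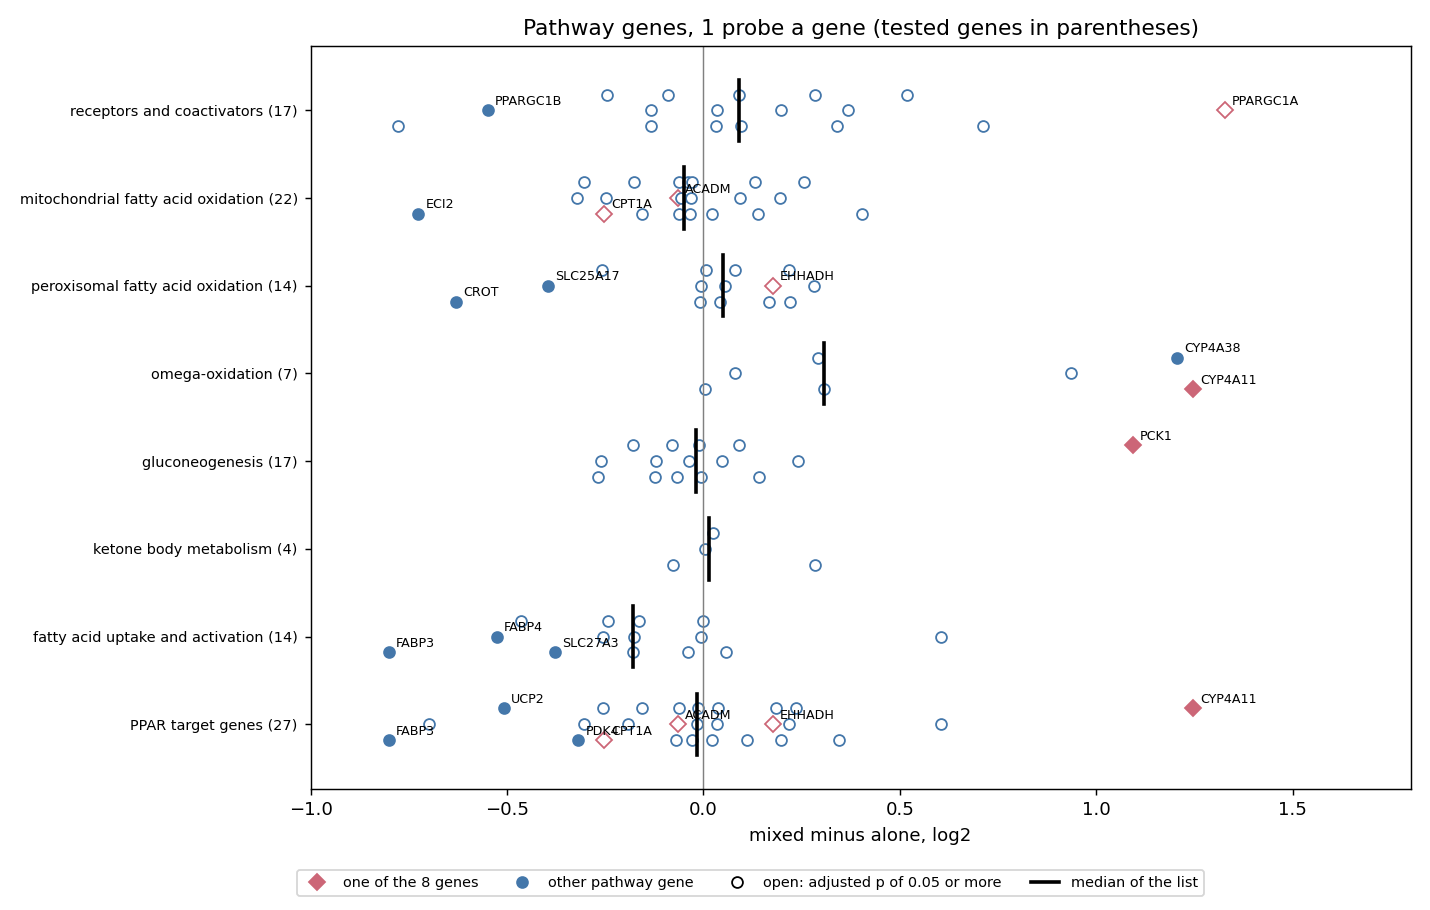
Difference on the log2 scale (horizontal) of each measured gene of 8 pathway lists at its brightest compared probe, with black bars at the list medians; 2 genes that are not reported here are not drawn. CYP4A11, PCK1, PPARGC1A and CYP4A38 stand to the right at over 1.0, while the medians of the lists lie between -0.18 and 0.31.

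Over the 8 lists, leaving out the 8 genes, 11 of 101 measured genes were called, 2 higher and 9 lower. That is 10.9%, and the share over all 19628 measured names, 1 probe each, was also 10.9%. Their median difference was -0.01, and 47 of the 101 had a positive value. Counting both directions, the pathways around CYP4A11, PPARGC1A and PCK1 were called no more often than the array as a whole. By direction their calls were not split like those of the array, where 1104 names were higher and 1039 lower. The 2 higher calls include CYP4A38, whose probe entered the comparison only through mixed culture. The lists were written with earlier results of these data known, so nothing more is read from this. The calls depended on single arrays, over the whole array as among these genes. Of 26534 probes, 2978 were called with all arrays, 7470 without alone replicate 1 and 2052 without mixed replicate 1. Of the 101 genes, 11 were called with all arrays, 28 without alone replicate 1 and 6 without mixed replicate 1. None was called by limma without alone replicate 2 or 3 or mixed replicate 2 or 3, where 3 to 22 probes of the whole array were called and 21 to 24 of the 101 genes had an unadjusted p under 0.05, against 34 with all arrays.

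Markers of kidney segments were set beside these values, from lists written in the same way. Of 23 proximal tubule markers on the array, 10 were well above background on all 6 arrays and 6 on none. LRP2, the gene of megalin, was not well above background on any array, and AQP1 on 1. CUBN, which encodes megalin's partner cubilin, differed by 0.43 and 0.46 at its 2 probes (limma's adjusted p = 0.0844 and 0.0732, and 0.0460 and 0.0379 with the replicate block). SLC5A2, a glucose transporter, had 0.29 at its bright probe, SLC34A1, a phosphate transporter, had -0.06 at 1 of 3 probes, and SLC6A18, an amino acid transporter, was higher by 0.32 (limma's adjusted p = 0.0360). MIOX and SLC34A3 had -0.46 to -0.41 without a call, and AMN, GGT1, KHK and SLC22A6 lay between 0.01 and 0.14. The mean log2 level of the list was -1.47 to -1.28 in culture alone and -1.37 to -1.30 in mixed culture, relative to the 75th percentile.

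Of 20 markers of the distal nephron and collecting duct, 11 were well above background on all 6 arrays and 8 on none, UMOD among the latter. TFAP2B, a transcription factor of the distal nephron, read 252, 169 and 196 in culture alone and 381, 394 and 404 in mixed culture, a difference of 0.95 (limma's adjusted p = 0.0193). AQP2, the water channel of the collecting duct, was higher by 0.36 at 1 of 3 probes (limma's adjusted p = 0.0248), and the others were not well above background. CDH16, a kidney cadherin, differed by 0.17. AQP3, ATP6V1B1, AVPR2, GATA3, SCNN1A, SCNN1B, SCNN1G and SLC12A1 lay between -0.16 and 0.38, without a call. The list's mean level was -2.45 to -2.40 in culture alone and -2.28 to -2.20 in mixed culture. Neither segment's defining markers were complete in these cells, with LRP2 and AQP1 near background on one side and UMOD on the other. Both lists also held genes well above background on all 6 arrays, 10 proximal and 11 distal. Among the proximal ones AMN read 164390 to 180920 units.

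Of 11 measured epithelial genes none was called by limma at its brightest probe, against 10.9% of all genes, a share at which few calls would be seen. Of the 11, 4 had an unadjusted p under 0.05, with differences from -0.52 to 0.72 and a median of 0.04 over the list. CLDN4, a claudin of tight junctions, had 0.72 without overlap (limma's adjusted p = 0.0842, and 0.0315 with the replicate block). OCLN, which encodes occludin, was higher by 0.41 at 1 probe (limma's adjusted p = 0.0245) and had 0.33 at the other. CLDN7 had -0.52, CDH1, the gene of E-cadherin, had -0.37 to -0.16 at 3 probes, and EPCAM had -0.05 to -0.01 at 3. These genes were named after their values were seen. Of 9 measured fibroblast and leukocyte genes none was called by limma, against the same 10.9% of all genes, and 3 had an unadjusted p under 0.05. PTPRC, the general leukocyte marker, was not well above background on any array. Among Ras-MAPK output genes, 4 of 15 were called, CCND1, EPHA2, EREG and FOSL1. All 4 were lower, as were 5.29% of all genes, while 3 of the 15 had a positive value. With the replicate block CCND1 was not called (limma's adjusted p = 0.0633), IER3 was called lower and SPRED1 higher. The list's median was -0.49, and it was -0.17 with normexp and -0.29 without mixed replicate 1. None of the 15 was called by limma without alone replicate 2 or 3 or mixed replicate 2 or 3, where 5 to 6 had an unadjusted p under 0.05, against 7 with all arrays. The mean level of the list was 0.74 to 0.83 in culture alone and 0.43 to 0.64 in mixed culture. The part of these marker lists in the differences of CYP4A11, PPARGC1A and PCK1 was not tested, and fewer cells with a transcript and less of it per cell cannot be told apart in RNA from sorted pools.

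The genes whose pattern over the 6 arrays was most like that of CYP4A11 were ABCC11, FMO5 and CTSS. The measure was the root mean square difference between log2 values, each centred on its probe's mean, and it was 0.10, 0.13 and 0.17 among 14776 probes of other named genes. ABCC11, an efflux pump, read 16.9, 18.8 and 25.0 in culture alone and 40.6, 63.9 and 49.1 in mixed culture. FMO5 is a flavin-containing monooxygenase and CTSS a lysosomal protease. For PCK1 the 3 closest were C1S, a complement protease, HERC5, an interferon-induced ligase, and TNFRSF14, a receptor of the TNF family, at 0.13, 0.18 and 0.18. C1S read 223, 182 and 207 in culture alone and 346, 524 and 551 in mixed culture. None of these 6 genes belongs to the pathway lists, and the likeness is over 6 arrays that share the contrast.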

How the data were processed

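The data are 6 Agilent canine arrays (4 x 44K), read in 1 colour. The authors deposited, per the file headers, intensity values per spot from Agilent Feature Extraction 10.10.1.1: a processed signal corrected for background, and the uncorrected spot and background brightness. A log2 table, also deposited by the authors, equals the log2 processed signal minus each array's 75th percentile within 0.01. No normalization step is stated in the methods. Here control spots and outlier flags were left out, spots of a probe were averaged, and log2 processed signals were taken minus the 75th percentile. Coordinates are those of the array annotation (CanFam3.1). No spot was saturated. Groups were compared with limma 3.58.1 (lmFit and eBayes, R 4.3.3, two-sided, Benjamini-Hochberg over 26534 probes, threshold 0.05), and the procedure was tested on simulated data. A gene of a list is represented by its brightest compared probe. Tables and plots were made with Python 3.11.15, pandas 2.3.3, numpy 2.4.6 and matplotlib 3.10.9. Curated transcripts of the CYP4A and other member probes were named through a RefSeq table (UU_Cfam_GSD_1.0), of which no coordinate was used.

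The members and lists were chosen with earlier results of these data known. Text names the 8 genes with every probe, called genes of each list (up to 6, largest first), the tubule markers named above, and the 3 genes most like CYP4A11 and PCK1. The replicate numbers 1 to 3 come from the sample titles. After removing group means, arrays with the same number correlated at 0.19 to 0.38 over 25529 probes. The numbers were used as a block in an alternative fit only. The main fit had no block, so its SEs and adjusted p-values ignore the replicate number. At base 1513 of CYP4A11 the SE was 0.31 without the block and 0.08 with it. Between different numbers the correlation was -0.36 to 0.26. Alone replicate 2 was closer to mixed replicate 3 (0.26) than to mixed replicate 2 (0.19), so the pairing is uncertain there. The number is also the position on the slide, so a shared experiment and a shared position cannot be told apart. No block for slide could be fitted, because slide and group coincide. Values of 2 listed genes are not reported here, although counts and medians of the lists include them.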

Additional observations from a re-analysis of the deposited data

How the results depend on the processing

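Over the whole array 2978 probes were called, and 12 with no filter on dim probes, 995 with spike-in scaling, 828 with the methods' t-test after Benjamini-Hochberg adjustment, 7313 with it unadjusted, and 300 at 2-fold or more. Leaving out 1 array gave 3 to 7470. The replicate block gave 2825. Normexp background correction gave 3977, so calls rose over the whole array under that setting as well. Of the 13 probes of the 8 genes, which this comparison chose, 3 were called, 0 with no filter (limma; 10 of 22 had an unadjusted p under 0.05), 1 with spike-in scaling and 5 with the replicate block, which dropped PCK1 and took in CYP4A11 at bases 1513 and 1260 and PPARGC1A at base 3028. Without 1 array it was 0 to 4: 4 without alone replicate 1 or mixed replicate 1, and 0 without each of the others (limma; 5 to 8 had an unadjusted p under 0.05). Of the 101 other pathway genes, 11 were called, 0 with no filter (limma; 26 had an unadjusted p under 0.05), 17 with normexp, 4 with spike-in scaling, 10 with the replicate block, and 0 to 28 without 1 array. The causes were not tested. With 3 arrays a group, precision is limited. The differences of CYP4A11, PCK1 and PPARGC1A kept their sign under every alternative in which the probe was compared. Their groups did not overlap at any compared probe, so leaving out 1 array could not have reversed these differences. Without mixed replicate 2, whose label gives another cell ratio, they were 1.12, 0.82 and 0.75 for CYP4A11 at bases 2365, 1513 and 1260, 1.07 and 0.88 for PCK1 at bases 2511 and 1837, and 1.09 and 1.52 for PPARGC1A at bases 3028 and 2693.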
